A study of Mus musculus with 107 samples.

Results

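The insulin-like growth factor axis carries signals from 2 secreted ligands through receptors of the insulin receptor family to adaptor proteins inside the cell, with binding proteins outside the cell that hold the ligands. The 10 members were given by symbol and mapped to mouse Entrez ids, and they are 10 of the 27179 genes counted in each library. They comprised the ligands *Igf1* and *Igf2*, the receptors *Igf1r* and *Insr*, the adaptors *Irs1* and *Irs2*, and the binding proteins *Igfbp2*, *Igfbp3*, *Igfbp4* and *Igfbp5*. Cultures given IGF-1 were examined in most detail, and every other condition was described beside them.

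The series followed mouse embryonic stem cells (ESC) through neural progenitor cells (NPC) to differentiated cells in culture. It also held NPC grafted into mouse spinal cord. Libraries of all 23 groups came from C57BL/6 cells or mice of RiboTag positive genotype, and the RNA was taken with ribosomes pulled down by the tag. ESC and all culture and graft groups derived from the same tagged female ESC line, whereas the host astrocyte groups came from mice with the tag in *Gfap*-Cre cells. The sex and age of the animals are not in the labels.

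ESC (n = 4) were kept undifferentiated. NPC grew in 100 ng/ml EGF and FGF, and 4 libraries each were made after 5, 15 or 30 passages (NPC P5, NPC P15 and NPC P30). Further derivations were sampled after 15 passages, with 6 libraries for NPC P15 D2 and 4 for NPC P15 D3. SPONT cultures (n = 4) were NPC held for 4 days in 1 ng/ml EGF and FGF with no serum. CNTF and IGF-1 cultures (n = 4 each) had the same medium plus 100 ng/ml of the named factor, and the serum cultures had 1, 5, 10 or 20% fetal bovine serum (FBS; n = 4 each). A culture with CNTF and 5% FBS together (CNTF+5% FBS; n = 4) has no dose or duration of CNTF in its label. NPC passed through a glass pipette formed 3 groups of n = 5: in hydrogel (NPC DCH), in hydrogel after 4 hours of holding in it (NPC DCH 4h), and in medium (NPC media). Host astrocytes came from uninjured cord (Astro, n = 9) and from cord 14 days after crush injury (Astro SCI, n = 5). Grafted cells were recovered from uninjured cord, crushed cord (SCI) and double-crushed cord (dSCI) at 14 days, and from crushed cord at 5 days (n = 5 each). Library totals ran from 12286240 to 147764968 counts. The 11 libraries of NPC P15 D2 and Graft SCI 5d had 12286240 to 18085106 counts. Their count column headers name 1 alignment input each and those of the other 96 libraries a pair, which was read as single against paired reads, although the methods give paired reads for all.

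IGF-1, IGF-2 and insulin bind the receptors encoded by *Igf1r* and *Insr*, and the activated receptors recruit the adaptors encoded by *Irs1* and *Irs2*, which connect them to PI3 kinase and AKT. AKT holds FOXO transcription factors out of the nucleus, and *Irs2*, *Insr* and *Igf1r* are known FOXO target genes. The binding proteins carry the ligands, lengthen their life and can raise or lower their access to receptors, and proteases that cut the binding proteins release the ligands.

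Levels are given in counts per 1000000 counts of the library (CPM). Between conditions each member ranged widely, and the order of the groups differed from member to member. The ratio of the highest to the lowest group mean was 8495 for *Igf1*, 4034 for *Igf2*, 2847 for *Igfbp5*, 256 for *Igfbp4*, 240 for *Igfbp3*, 120 for *Igfbp2*, 54.7 for *Irs2*, 46.6 for *Irs1*, 10.4 for *Igf1r* and 8.88 for *Insr*. The ratio for *Igf1* rests on 10 counts summed over the ESC libraries. That for *Igf2* depends on single libraries at both ends. NPC DCH 4h replicate 2 (2.05 CPM, others 0.139 to 0.668) raised the lowest mean, which makes the ratio smaller. Graft dSCI replicate 1 (6319, others 693 to 2666) raised the highest mean, which makes the ratio larger. With the 23 groups placed in order of mean there were 22 neighbouring pairs, and replicate values overlapped in 14 (*Igfbp4*) to 21 (*Igf1r*, *Irs1*) of them.

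**Figure D1:**
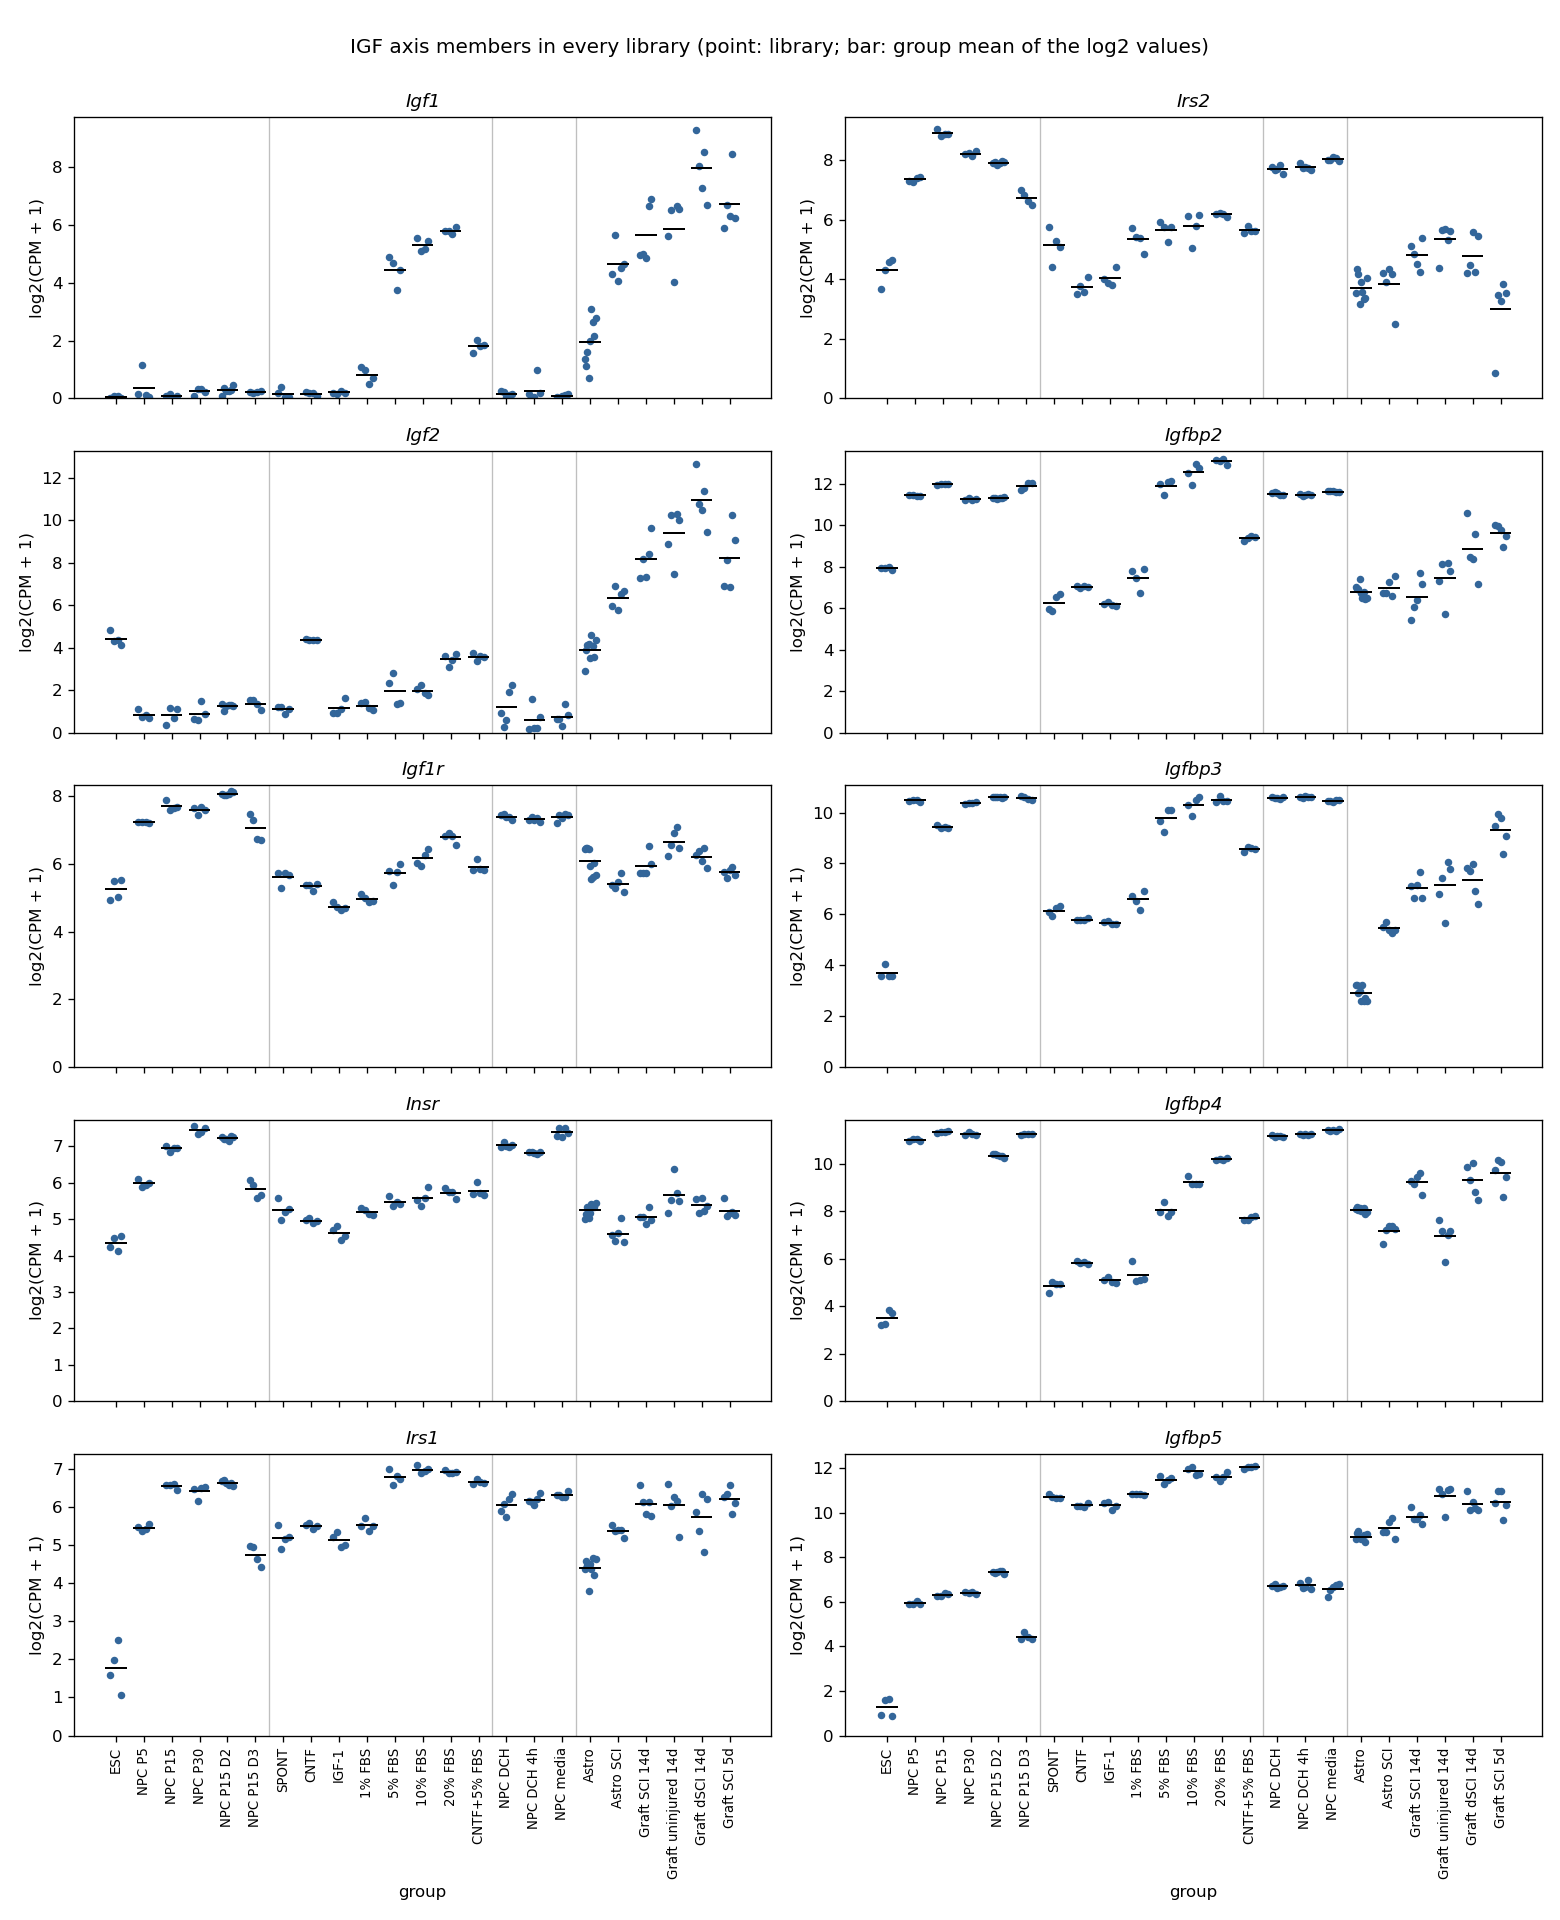
Level of each of the 10 members in every library of the 23 groups, as log2(CPM + 1). Each point is a library and each bar the group mean of the log2 values.

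The ligand gene *Igf1* (Entrez 16000, chromosome 10, 87858265 to 87937047) was near the detection floor in ESC, in all NPC groups and in cultures without serum, with group means of at most 0.367 CPM. Serum cultures gave 1.13, 0.958, 0.422 and 0.641 CPM at 1% FBS, 28.4, 24.4, 12.6 and 20.5 at 5%, 45.2, 33.6, 34.9 and 42.1 at 10%, and 53.6, 53.9, 50.4 and 59.4 at 20%. These doses were in order without overlap. Astro libraries had 0.631, 2.93 and 7.51 CPM (lowest, median, highest), below Astro SCI (18.8, 49.2, 15.7, 21.9 and 23.9). The grafts had 29.9, 30.6, 27.8, 99.2 and 118 in SCI at 14 days, 47.6, 90.9, 15.4, 98.7 and 91.6 in uninjured cord, 616, 261, 153, 364 and 102.1 in dSCI, and 58.4, 103, 79, 350 and 74.2 in SCI at 5 days. Double crush was above uninjured cord without overlap, the other pairs of graft groups overlapped, and all grafts were above every NPC library.

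The second ligand gene, *Igf2* (Entrez 16002, chromosome 7, 142650768 to 142666816), is imprinted, with expression mainly from the paternal copy. ESC had 27.5, 18.6, 19.4 and 16.2 CPM, and NPC group means were 0.636 to 1.63. SPONT had 1.29, 1.29, 0.87 and 1.19, IGF-1 0.918, 0.893, 1.16 and 2.1, and CNTF 20.3, 19.5, 19.7 and 19.3. CNTF was thus far above SPONT and IGF-1, which overlapped. Means at rising serum doses were 1.44, 3.35, 2.97 and 10.2 CPM, and 11 with CNTF and 5% FBS together. Astro had 6.45, 15.9 and 23 (lowest, median, highest) and Astro SCI 60.9, 117, 53.2, 92.1 and 100, without overlap. Grafts held the highest values: 152, 286 and 790 (lowest, median, highest) in SCI at 14 days, 473, 1206, 174, 1250 and 1027 in uninjured cord, 6319, 1725, 1421, 2666 and 693 in dSCI, and 117, 274, 114, 1216 and 528 in SCI at 5 days. Every graft library of 14 days was above every Astro SCI library, the grafts of 5 days overlapped Astro SCI, and the graft groups overlapped one another. The antisense gene *Igf2os* had group means of at most 2.63 CPM. Counting was at default settings, which ignore strand, so reads from positions that both genes share cannot be told apart. Per kilobase of exon, *Igf2* exceeded *Igf1* in Graft dSCI (448 against 30.2 CPM per kb).

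The receptor gene *Igf1r* (Entrez 16001, chromosome 7, 67952257 to 68233668) encodes the main receptor for both ligands. Its highest group was NPC P15 D2 (258, 265 and 281 CPM; lowest, median, highest) and the other NPC groups had means from 135.1 (NPC P15 D3) to 208 (NPC P15). The lowest group of all was IGF-1, with 28.4, 25.6, 23.7 and 24.9 CPM, beside 51.5, 37.9, 52.2 and 50 in SPONT, 40.1, 40.4, 36 and 41 in CNTF, and 33.2, 30.9, 28.1 and 29 in 1% FBS. Every IGF-1 library was below every SPONT and CNTF library, and the ranges of IGF-1 and 1% FBS overlapped. Means rose along serum from 30.3 through 52.5 and 71.2 to 110. *Insr* (Entrez 16337, chromosome 8, 3150922 to 3279649), whose product binds insulin and IGF-2, was highest in NPC P30 (mean 174) and lowest in ESC (19.5). SPONT had 47.1, 30.5, 35.8 and 37.6, IGF-1 24.9, 27, 20.6 and 22.1, and CNTF 30.4, 31.5, 28.5 and 29.8. Here IGF-1 was below both SPONT and CNTF without overlap. Group means at rising serum were 35.9, 43.5, 47.4 and 51.9, and neighbouring doses overlapped from 5% upward. In grafts the *Igf1r* means were 61.8 (SCI 14 days), 101.5 (uninjured), 74 (dSCI) and 52.9 (SCI 5 days), and the *Insr* means 32.5, 51.7, 41 and 37.

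Adaptor *Irs1* (Entrez 16367, chromosome 1, 82233105 to 82291439) was lowest in ESC (1.99, 2.94, 4.65 and 1.11 CPM) and its highest mean was in 10% FBS (134.7, 118, 121 and 126), which overlapped 5% and 20% FBS. NPC means ran from 26 (NPC P15 D3) to 97.7 (NPC P15 D2). SPONT, IGF-1 and CNTF had means of 36, 34 and 44.5, and IGF-1 was below CNTF without overlap while SPONT overlapped both. *Irs2* (Entrez 384783, chromosome 8, 10984681 to 11008929) was highest in NPC P15 (527, 443, 464 and 471), above every other group, and its mean in NPC P15 D3 was 106.9. SPONT had 53.6, 20.5, 38.2 and 32.7, IGF-1 15, 13.8, 13 and 20.3, and CNTF 10.4, 12.8, 10.8 and 16. The lowest SPONT library stood just above the highest IGF-1 library, and IGF-1 overlapped CNTF. The lowest group mean was 8.7 in Graft SCI 5d (0.814, 10.1, 8.74, 13.2 and 10.7), below 28.5, 41.4 and 29.2 in the grafts of 14 days in SCI, uninjured and dSCI cord.

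Among binding proteins, *Igfbp2* (Entrez 16008) and *Igfbp5* (Entrez 16011) are neighbours on chromosome 1 (72824480 to 72852474 and 72858065 to 72874865) and differed in the order of their groups. *Igfbp2* was high in NPC (means 2460 to 4025), low in SPONT (61.1, 57.9, 93.1 and 101.3) and IGF-1 (73.2, 79.1, 69.8 and 68.8), and somewhat higher in CNTF (132, 126, 133 and 129). Under serum it had 107.1, 199 and 237 (lowest, median, highest) at 1%, 4060, 2847, 4331 and 4459 at 5%, 5846, 3963, 8054 and 6905 at 10%, and 9085, 8888, 9366 and 7611 at 20%. Only 1% was apart from its neighbouring dose, since the 3 higher doses overlapped in turn. *Igfbp5* was low in ESC (mean 1.48) and NPC (20.7 to 160), and stood at 1809, 1670, 1632 and 1638 in SPONT, 1367, 1416, 1129 and 1243 in IGF-1, and 1281, 1263, 1229 and 1381 in CNTF. Its highest group was CNTF+5% FBS (3960, 4261, 4288 and 4327), followed by 10% FBS (mean 3749) and 20% FBS (3153).

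The other binding proteins shared a high level in NPC. *Igfbp3* (Entrez 16009, chromosome 11, 7206086 to 7215498) had NPC means of 690 to 1577, then 66.7, 60.3, 74.6 and 78.8 in SPONT and 51.5, 52.6, 48.3 and 47.7 in IGF-1, without overlap. Its means rose along serum from 97.2 through 901 and 1295 to 1453, and its lowest group was Astro (4.99, 6.44 and 8.46; lowest, median, highest). *Igfbp4* (Entrez 16010, chromosome 11, 99040005 to 99052655) was lowest in ESC (mean 10.5) and highest in NPC media (2698). SPONT had 22.4, 31, 29.8 and 29.5, IGF-1 33.7, 36.3, 31.9 and 30.7, and CNTF 58.9, 54.9, 57.6 and 53.5. CNTF stood apart and the other two overlapped. Under serum the doses were in order without overlap, with means of 40.1, 266, 606 and 1165.

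Divided by exon length, the 4 binding proteins together gave 138 CPM per kb in ESC, 2997 in NPC P15, 352 in SPONT, 277 in IGF-1, 315 in CNTF, and 445, 2950, 4527 and 5984 along serum. Their make-up turned over between conditions. *Igfbp5* was 0.112 to 1.21% of the sum in NPC groups, 79.8% in SPONT, 68% in CNTF, 77.3% in IGF-1, 68.9% in 1% FBS, 16.4% in 5% FBS, 8.84% in 20% FBS and 56.9% in CNTF+5% FBS. In 20% FBS *Igfbp2* made up 79.1%.

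Tests of all genes used the edgeR adjusted p at a threshold of 0.01. The p-values measure spread between samples, which may be technical. How many of all genes had ranges without overlap was not counted, so lack of overlap is described for the members only. NPC P15 against ESC called 10311 genes (67.2%), and all 9 members tested were called, 8 higher and 1 lower. *Igfbp4* rose most (log2 fold 7.85, SE 0.16, edgeR adjusted p 7.1e-12), and *Igf2* fell by 4.72 (SE 0.42, edgeR adjusted p 1.2e-06). The others rose by 5.74 (*Igfbp3*), 5.68 (*Igfbp5*), 5.04 (*Irs1*), 4.53 (*Irs2*), 3.96 (*Igfbp2*), 2.56 (*Insr*) and 2.38 (*Igf1r*). No range overlapped for any of them. The decile medians by exon length went from -0.80 (shortest) to 0.62 (longest), and relative to its decile *Insr* was 1.94 and *Igf1r* 1.76. SPONT against NPC P15 called 8491 genes (57.2%) and 8 of 9 members tested. The labels give no derivation for SPONT, so derivation and the lower EGF and FGF cannot be told apart in this comparison. *Igfbp5* rose by 4.54 (SE 0.07, edgeR adjusted p 9.7e-12). *Igfbp4* (-6.39), *Igfbp2* (-5.56), *Irs2* (-3.59), *Igfbp3* (-3.17), *Igf1r* (-1.99), *Insr* (-1.57) and *Irs1* (-1.23) fell, again with every SPONT library beyond every NPC P15 library. *Igf2* was not called (0.62, edgeR adjusted p 0.304). Here the decile medians went from 0.48 (shortest) to -0.29 (longest), and relative to its decile *Igf1r* was -1.70, *Insr* -1.28 and *Irs1* -1.01. Markers moved as well, with 5 of 6 astrocyte genes higher and 0 lower (median 3.46). Of 10 oligodendrocyte lineage genes 6 were higher and 2 lower (median 3.56). Astrocyte markers summed to means of 1474 CPM in NPC P15 and 12989 in SPONT, and what this did to the members was not tested. The *Irs1* fall depended on the NPC group used, also in direction: against NPC P5 the change was -0.11 (edgeR adjusted p 0.461), and against NPC P15 D3 it was 0.53 (edgeR adjusted p 0.00789). *Igf2* also turned, to a mean of 1.61 CPM in NPC P15 D3 beside 1.16 in SPONT. The other called changes kept their direction and several differed in size, with mean CPM in NPC P15, NPC P15 D3 and SPONT of 476, 106.9 and 36.2 for *Irs2* and 122, 55.9 and 37.7 for *Insr*, and for *Igfbp5* means of 79.1 and 20.7 beside 1632 to 1809 in SPONT.

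IGF-1 against SPONT called 979 genes (6.55%), 418 higher and 561 lower, and 4 of 10 members, all lower. *Igf1r* fell by 0.85 (SE 0.10, edgeR adjusted p 0.00383), *Insr* by 0.63 (SE 0.12, 0.00743), *Igfbp3* by 0.44 (SE 0.08, 0.00786) and *Igfbp5* by 0.34 (SE 0.07, 0.00917). In each of these all 4 IGF-1 libraries were below all 4 SPONT libraries. The same separation held for *Irs2*, which missed the threshold with a larger change (-1.17, SE 0.25, edgeR adjusted p 0.0104). Not called were *Igfbp4* (0.28, edgeR adjusted p 0.0732), *Igf1* (0.35, 0.692), *Igf2* (0.19, 0.647), *Irs1* (-0.04, 0.839) and *Igfbp2* (-0.06, 0.81). A value that misses the threshold does not show that there was no difference. For *Igf1* the libraries held 35 counts in SPONT and 46 in IGF-1, and its change ran from 0.02 to 1.16 with a library left out.

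These calls depended on which library was left out. Without SPONT 2 the test called 5724 genes and 5 members, with *Irs2* added (-1.35, edgeR adjusted p 1.3e-04). Without SPONT 1 it called 513 genes and 2 members, *Igf1r* and *Insr*. Leaving out IGF-1 3 left 1 gene and no member, and leaving out SPONT 3, SPONT 4, IGF-1 1, IGF-1 2 or IGF-1 4 left 0 genes and 0 members by edgeR, with 5342, 5444, 5660, 5786 and 6156 genes at unadjusted p below 0.05 in turn. With all 8 libraries that unadjusted number was 6588, and DESeq2 called 3619 genes and 5 members. With the replicate block, which DESeq2 was not given, edgeR called 1 gene and 0 members. With a library left out, the edgeR adjusted p of members that lost their call was 0.016 to 0.0217 for *Igf1r*, 0.021 to 0.0335 for *Insr*, 0.0259 to 0.0341 for *Igfbp3* and 0.0249 to 0.0406 for *Igfbp5*. The fold changes kept their direction: -0.93 to -0.81 for *Igf1r*, -0.70 to -0.51 for *Insr*, -1.35 to -0.93 for *Irs2*, -0.48 to -0.38 for *Igfbp3* and -0.36 to -0.31 for *Igfbp5*.

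Fold changes in this comparison varied with exon length. The median log2 fold was 0.39 in the decile of shortest exon length (median 1144 bases) and -0.34 in the decile of longest (12564 bases), where 213 of 217 called genes were lower. Genes of at least 6568 bases took 25.8, 20.8, 23.6 and 24% of counts in SPONT and 20, 20.9, 18 and 19.3% in IGF-1. SPONT 2 stood with the IGF-1 libraries and the other SPONT libraries were higher. Exon lengths are 16791 bases for *Igf1r*, 13746 for *Insr*, 9144 for *Irs1*, 6323 for *Irs2*, 6006 for *Igfbp5* and 3130 for *Igfbp3*. Relative to the median of its own decile the change was -0.99 for *Irs2*, -0.51 for *Igf1r*, -0.50 for *Igfbp3*, -0.28 for *Insr* and -0.21 for *Igfbp5*. With normalization factors for each decile, an alternative chosen after seeing the data, edgeR called 412 genes and 2 members, *Igf1r* (-0.51, adjusted p 0.0061) and *Igfbp3* (-0.51, 0.00701), whereas *Insr* (-0.28, 0.0295) and *Igfbp5* (-0.23, 0.0295) lost their calls.

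**Figure D2:**
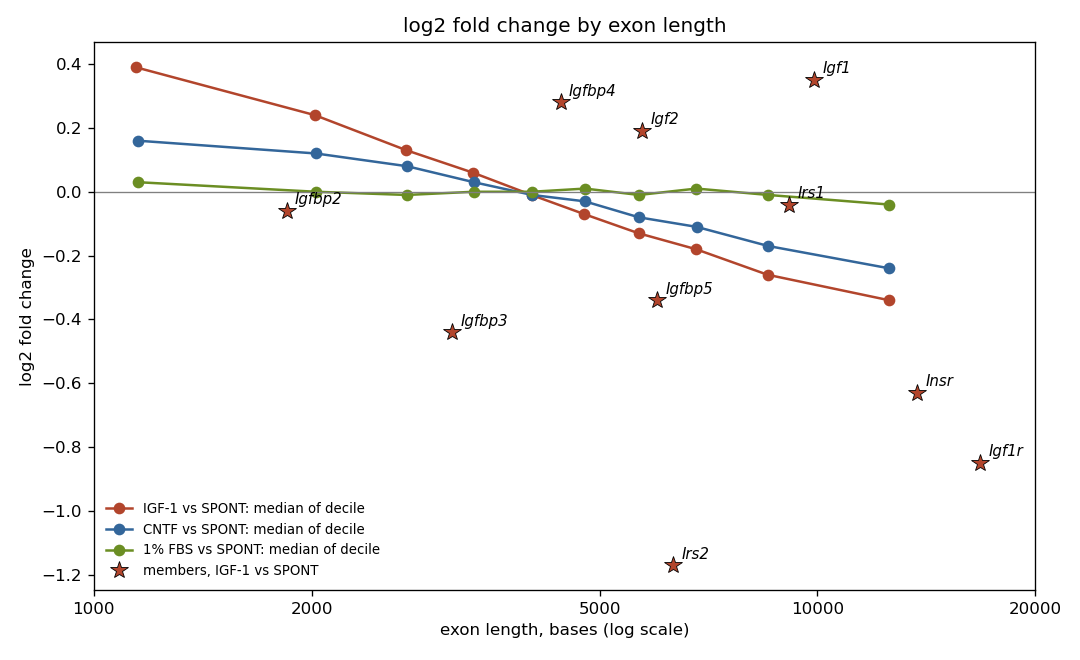
Median log2 fold change of all genes by decile of exon length for the IGF-1, CNTF and 1% FBS cultures against SPONT. The 10 members are named at their change between IGF-1 and SPONT.

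The axis lists outside the 10 members were counted for IGF-1 against SPONT as well. Of 3 other binding proteins 1 was higher (*Igfbp7*, 0.73, edgeR adjusted p 0.0077). Of 12 other adaptors and receptor inhibitors 1 was higher (*Socs3*, 0.62) and 4 were lower (*Irs4* -2.01, *Grb10* -1.02, *Gab1* -0.61 and *Ptpn1* -0.32). None of 2 other receptors or 5 proteases and inhibitors was called. The list of mRNA binding proteins and imprinted partners had 1 of 5 lower (*Peg3*, -1.49). In the PI3K, AKT and mTOR list 1 of 24 was higher (*Rheb*, 0.33) and 1 lower (*Pik3r1*, -0.62), with a median of -0.28 beside -0.01 for all genes. FOXO factors and targets had 1 of 21 lower (*Bcl6*, -0.76) and a median of -0.19. SREBP targets had 2 of 22 lower (*Srebf2* -0.50 and *Sqle* -0.40) and a median of -0.25.

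CNTF against SPONT called 2961 genes (19.9%) and 6 of 9 members tested. *Igf2* rose 17.2-fold (log2 4.11, SE 0.14, edgeR adjusted p 2.6e-08), *Igfbp4* by 1.02 (4.2e-05) and *Igfbp2* by 0.76 (0.00433). *Irs2* fell by 1.51 (edgeR adjusted p 9.9e-04), *Igfbp5* by 0.37 (0.00125) and *Igfbp3* by 0.34 (0.00793). No ranges overlapped in these 6. *Igf1r* (-0.26, edgeR adjusted p 0.0604), *Insr* (-0.31, 0.0596) and *Irs1* (0.33, 0.0539) were not called. Without SPONT 2 the number of genes was 6049 and *Igf1r* (-0.34, 6.5e-04) and *Insr* (-0.38, 0.00344) were called, and without SPONT 1 *Irs1* was called (0.45, 0.00196). With all libraries the decile medians by exon length went from 0.16 (shortest) to -0.24 (longest), and relative to its decile *Igf1r* was -0.02 and *Insr* -0.07. Leaving out any CNTF library ended the calls of *Igfbp2* (edgeR adjusted p 0.0121 to 0.0168) and *Igfbp3* (up to 0.0348), and *Igfbp3* also lost its call without SPONT 3 or SPONT 4. With the replicate block *Igfbp5* (edgeR adjusted p 0.0115) and *Igfbp3* (0.0264) were not called.

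In the other lists CNTF raised 4 of 12 adaptors and inhibitors (*Socs3* 4.21, *Socs2* 1.39, *Socs1* 1.36, *Grb14* 0.56) and lowered 1 (*Dok5*, -0.80). The decoy receptor *Igf2r* rose by 1.70 and *Igfbpl1* by 1.25. Among 5 proteases and inhibitors 3 were higher (*Stc1* 1.13, *Htra3* 1.07, *Adamts1* 0.68) and 1 lower (*Htra1*, -0.42). Of 6 mRNA binding proteins and imprinted partners 3 were higher (*H19* 3.73, *Igf2bp3* 1.31, *Igf2bp2* 0.69) and 1 lower (*Dlk1*, -1.10). The PI3K list had 4 of 24 lower (largest *Pik3r1*, -1.31), the FOXO list 6 of 21 lower (largest *Trim63*, -2.23), and the SREBP list 10 of 22 lower (largest *Idi1*, -0.90) and 1 higher (*Srebf1*, 0.65). Their medians were -0.27, -0.29 and -0.40 beside -0.01 for all genes. The summed level of 6 astrocyte markers, with *Gfap* on top, was 15191, 13487, 11621 and 11657 CPM in SPONT, 18338, 19527, 17603 and 17980 in IGF-1, and 26132, 26559, 27423 and 26771 in CNTF, each apart from the others. These sums follow *Gfap* (means 7880, 13689 and 22084). Of the 6 genes IGF-1 had *Gfap* higher (0.84) and *Sox9* lower (-0.46), with a median of 0.07, and CNTF had *Gfap* and *Aqp4* (0.94) higher, with a median of 0.19. Oligodendrocyte lineage markers summed to 6273 to 8093 in SPONT and 7068 to 8446 in IGF-1, overlapping. Under IGF-1 2 of 10 were lower and none higher, while the list had a median of 0.28. In CNTF they summed to 4273 to 4610, apart from both, with 4 of 10 lower and a median of -0.41. Neuron markers summed to 27.8 to 31 in SPONT and 19.8 to 23 in IGF-1, without overlap, with 1 of 4 tested lower (median -0.45), and to 31.4 to 35.3 in CNTF, with 1 of 4 higher. Their part in the result was not tested.

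1% FBS against SPONT called 1312 genes (8.78%) and 2 of 10 members. *Igfbp2* rose by 1.25 (SE 0.24, edgeR adjusted p 0.00516) and *Igf1r* fell by 0.64 (SE 0.11, 0.00233), both without overlap. *Igf1* was higher in all 4 libraries and not called (2.61, SE 0.60, edgeR adjusted p 0.012). Without SPONT 2 there were 1975 genes and *Igf1* was called (3.41, 0.00174). The number of genes was 628 without SPONT 3, with 0 members by edgeR (4029 genes and 5 members at unadjusted p below 0.05, and 4 members by DESeq2 on all libraries), 698 without SPONT 4, and 715, 730 and 793 without 1% FBS 1, 2 and 3. *Igf1r* lost its call without SPONT 3 (edgeR adjusted p 0.0122) or SPONT 4 (0.0102), and *Igfbp2* without SPONT 1, SPONT 3 or 1% FBS 1, 2 or 4 (0.0102 to 0.0193). Other lists had *Socs3* (1.84), *Socs1* (1.07) and *Socs2* (0.88) higher of 12 adaptors and inhibitors, and *Igfbpl1* (2.62), *Adamts1* (1.32) and *Dlk1* (2.97) higher, with *Cdkn1c* (-1.30) and *Pik3r1* (-0.48) lower. The FOXO list had 3 of 21 lower (*Fbxo32* -0.90, *Pik3ip1* -0.51, *Foxo4* -0.50) and the SREBP list 2 of 22 (*Fdps* -0.52, *Insig1* -0.51). CNTF, IGF-1 and 1% FBS were all tested against the same 4 SPONT libraries, so these comparisons are not independent. Markers moved in 1% FBS as well: 3 of 6 astrocyte genes were higher (sums of 21903 to 26271 CPM against 11621 to 15191), 3 of 10 oligodendrocyte lineage genes lower (5011 to 6133 against 6273 to 8093), 2 of 5 NPC markers lower, and 1 of 4 neuron genes tested lower (12.7 to 15.8 against 27.8 to 31). Of 6 fibroblast genes 1 was higher and 0 lower (median 1.74), with sums of 22.5 to 124 against 12.4 to 15.8. The sums given did not overlap, and what this did to the result was not tested.

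IGF-1 against CNTF, which does not use SPONT, called 5644 genes (37.6%) and 6 of 10 members, all lower: *Igf2* (-3.90), *Igfbp2* (-0.80), *Igfbp4* (-0.72), *Igf1r* (-0.58), *Irs1* (-0.35) and *Insr* (-0.31). *Igf1r* had an edgeR adjusted p of 1.1e-06, and no ranges overlapped in the 6. *Irs2* was called without CNTF 4 (0.49, edgeR adjusted p 0.00799). IGF-1 against 1% FBS called 6360 genes (42.4%) and 7 of 10 members, all lower and without overlap: *Igf1* (-2.25), *Irs2* (-1.35), *Igfbp2* (-1.30), *Igfbp3* (-0.91), *Insr* (-0.56), *Igfbp5* (-0.46) and *Irs1* (-0.37). *Igf1r* was not called against 1% FBS (-0.19, edgeR adjusted p 0.0467). Exon length mattered here too: decile medians went from 0.38 (shortest) to -0.30 (longest) against 1% FBS and from 0.22 to -0.11 against CNTF. Relative to its decile *Insr* was -0.26 against 1% FBS and -0.19 against CNTF, *Igf1r* 0.11 and -0.46, and *Irs1* -0.13 and -0.27. With decile factors *Irs1* lost its call against 1% FBS (-0.13, edgeR adjusted p 0.151). Markers differed as well. Against 1% FBS, 4 of 6 fibroblast genes (median -2.24) and 5 of 6 astrocyte genes were lower and 5 of 10 oligodendrocyte lineage genes higher (1 lower). Against CNTF, 3 of 6 astrocyte genes were lower and 6 of 10 oligodendrocyte lineage genes higher (1 lower). What this did to the members was not tested.

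**Figure D3:**
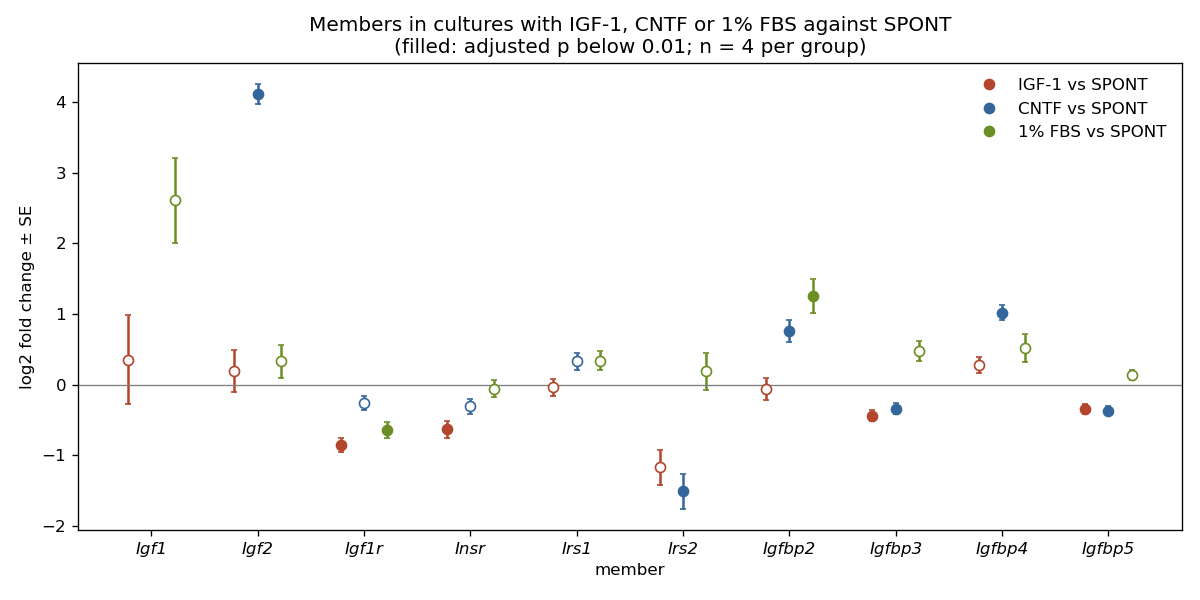
Change of the 10 members against SPONT in the IGF-1, CNTF and 1% FBS cultures, with standard errors. Filled points are called.

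Along serum, 20% against 1% FBS called 9227 genes (60%) and all 10 members, every one higher and without overlap. *Igf1* rose 68.3-fold (log2 6.09, SE 0.20, edgeR adjusted p 8.3e-11) and *Igfbp2* 46.3-fold (5.53, SE 0.22, 4.5e-10). The rest rose by 4.83 (*Igfbp4*), 3.88 (*Igfbp3*), 2.79 (*Igf2*), 1.83 (*Igf1r*), 1.37 (*Irs1*), 0.77 (*Irs2*), 0.75 (*Igfbp5*) and 0.50 (*Insr*). Of 7 proteases and inhibitors 5 were higher (*Stc1* 4.95, *Pappa* 4.85, *Pappa2* 3.47, *Adamts1* 2.69, *Htra1* 2.14) and none lower. The FOXO list had 12 of 21 higher and 6 lower. SREBP targets had 20 of 22 lower (largest *Fads2*, -3.05) and 1 higher (*Sqle*, 0.76), with a median of -0.98 beside 0.00 for all genes. The 6 fibroblast and meningeal markers summed to 13.2, 14.6, 15.8 and 12.4 CPM in SPONT, 124, 75.1, 30.1 and 22.5 in 1% FBS, 235, 539, 191 and 150 in 5%, 261, 358, 230 and 201 in 10%, and 519, 454, 546 and 460 in 20%. Serum cultures were all above SPONT, and 5% overlapped 10% and 20%. Astrocyte markers summed to means of 23639, 19283, 12157 and 6079 along the doses. At 20% against 1%, 6 of 6 astrocyte, 8 of 10 oligodendrocyte lineage (median -2.97; mean sums 5551 at 1% and 811 at 20%) and 4 of 5 NPC markers were lower, and their part in the result was not tested. In bulk samples fewer cells of a type and less RNA per cell cannot be told apart.

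CNTF added to 5% FBS called 3564 genes (23.3%) and 5 of 10 members. *Igf1* fell by 3.17 (SE 0.26, edgeR adjusted p 3.5e-05), *Igfbp2* by 2.62 (SE 0.13, 3.1e-06) and *Igfbp3* by 1.33 (SE 0.17, 3.3e-04). *Igf2* rose by 1.64 (SE 0.39, edgeR adjusted p 0.00799) and *Igfbp5* by 0.48 (SE 0.09, 0.00219). None of these ranges overlapped. *Igf2* kept its call only without 5% FBS 2 (2.10), and otherwise had an edgeR adjusted p of 0.0122 to 0.0236 with a library left out. *Igfbp4* (-0.42, edgeR adjusted p 0.0184) was called without 5% FBS 3 (-0.51, 0.00656). The number of genes was 2103, 2208, 2120 and 1968 without CNTF+5% FBS 1, 2, 3 and 4. Fibroblast markers had 5 of 6 lower, with a median of -3.89, and summed to 20.6, 27, 25.5 and 23.6 CPM against 235, 539, 191 and 150 in 5% FBS. All 5 NPC markers were called, 2 higher and 3 lower. Their part in the result was not tested.

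Graft SCI 14d against NPC DCH called 7757 genes (51.6%) and 9 of 10 members. *Igf1* rose by 9.41 (SE 0.72, edgeR adjusted p 1.5e-07), *Igf2* by 8.18 (SE 0.89, 4.0e-06) and *Igfbp5* by 3.47 (SE 0.12, 3.1e-10). *Igfbp2* (-4.38), *Igfbp3* (-3.17), *Irs2* (-2.50), *Insr* (-1.66), *Igfbp4* (-1.57) and *Igf1r* (-1.09) fell, and *Irs1* overlapped and was not called (0.37, edgeR adjusted p 0.0465). The *Igf1* fold rests on 42 counts in NPC DCH. The *Igf2* fold was 7.47 without Graft SCI 14d 5 and 8.73 without NPC DCH 5. With other NPC groups as reference the changes of *Igf1*, *Igf2*, *Irs2* and *Igfbp3* moved by over 1.5 times in size and kept their direction. All 22 SREBP targets were lower, with a median of -2.23 beside 0.15 for all genes, and the FOXO list had 12 of 21 higher and 2 lower. Of the markers, all 10 myeloid, all 6 fibroblast and all 5 neuron genes were higher in the graft. So were 7 of 10 oligodendrocyte lineage genes (2 lower), 4 of 5 endothelial and 4 of 6 astrocyte genes, and 3 of 5 NPC markers were lower. Myeloid markers summed to means of 1003 CPM in the graft and 1.22 in NPC DCH, and neuron markers to 230 and 2.2. Their part in the result was not tested.

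Grafts in SCI against uninjured cord called 734 genes (4.64%) and 1 of 10 members. *Igfbp4* had 620, 558, 687, 772 and 404 CPM in SCI and 195, 141, 57.5, 127.1 and 143 in uninjured cord, without overlap, a rise of 5.47-fold (log2 2.45, SE 0.29, edgeR adjusted p 3.7e-04) that was called with any library left out (2.25 to 2.63). *Igfbp5* was not called (-0.72, edgeR adjusted p 0.0691) except without Graft uninjured 3 (-0.91, 0.00769). The number of genes was 310, 303, 232, 372 and 1576 without SCI 1 to SCI 5 in turn, and 431, 481 and 481 without uninjured 2, 4 and 5. Of the other binding proteins *Igfbp7* was higher (1.64) and *Igfbp6* lower (-3.17). *Akt2* (0.89) and *Txnip* (1.40) were higher in the PI3K and FOXO lists, and SREBP targets had 13 of 22 lower and 1 higher (*Srebf1*, 0.70), with a median of -1.20 beside -0.05. Neuron markers summed to 144, 224, 117, 387 and 275 CPM in SCI, 1706, 1041, 953, 791 and 3775 in uninjured cord, and 141, 410, 325, 719 and 218 in dSCI. Oligodendrocyte lineage markers summed to 13524, 14301, 11353, 5882 and 7691 in SCI, 15770, 27244, 17476, 29749 and 22133 in uninjured cord, and 13216, 6921, 6988, 11877 and 4459 in dSCI. Genes of at least 6568 bases took 20 to 24% of counts in SCI, 28.8 to 33.4% in uninjured cord and 22.1 to 27.5% in dSCI. For all 3 measures SCI and dSCI were below uninjured cord without overlap, and what this did to the result was not tested.

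dSCI against uninjured cord called 666 genes (4.19%) and again only *Igfbp4* (936, 637, 1045, 448 and 352 CPM in dSCI; log2 2.54, SE 0.33, edgeR adjusted p 0.00108), without overlap and with any library left out (2.33 to 2.70), but not with the replicate block (2.56, 0.0134). *Igf1* was higher in all 5 dSCI libraries and missed the threshold (2.27, SE 0.51, edgeR adjusted p 0.013), and *Igf2* (1.77, 0.0669) and *Igfbp2* (1.78, 0.057) overlapped and were not called. *Igf1* was called without dSCI 5 (2.45, 0.0093). Without dSCI 1 the change was 1.17 for *Igf2* and 1.16 for *Igfbp2*. The number of genes was 355, 215, 436 and 299 without uninjured 1 to 4 in turn, and 427, 197, 223 and 425 without dSCI 1 to 4. Other lists had *Igfbp7* (2.25), *H19* (2.56), *Inpp5d* (2.23), *Bcl2l11* (1.34) and *Ptpn1* (1.13) higher, *Grb14* (-0.89) and *Phlpp1* (-0.97) lower, and 11 of 22 SREBP targets lower, with a median of -1.23 beside -0.02. Both comparisons use the same uninjured grafts. The 10 myeloid markers, with *Lyz2* on top, summed to 723, 572, 966, 829 and 1921 CPM in SCI, 640, 578, 211, 281 and 1556 in uninjured cord, and 1944, 5623, 3687, 11707 and 1111 in dSCI. Fibroblast markers summed to 1522, 1045, 1288, 1676 and 3871 in SCI, 1950, 4404, 1693, 4117 and 3081 in uninjured cord, and 27569, 10706, 11621, 11330 and 7211 in dSCI. SCI and uninjured grafts overlapped for these myeloid and fibroblast lists, and of the 2 dSCI was apart for fibroblast markers. Called higher in dSCI were *Lyz2* (3.81), *Cd68* (3.09), *Ptprc* (2.23), *Col1a1* (2.72) and *Col3a1* (2.35). No gene of either list was at 0 in these groups. Their part in the result was not tested.

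SCI grafts of 14 against 5 days called 811 genes (5.3%) and 2 of 10 members, both lower at 14 days. *Igfbp2* had 42.7, 65.9, 83.2, 207 and 145 CPM at 14 days and 1051, 1001, 885, 493 and 713 at 5 days (log2 -2.69, SE 0.43, edgeR adjusted p 0.00191). *Igfbp3* had 137, 97.7, 143, 203 and 98.9 against 702, 989, 888, 330 and 539 (-2.15, SE 0.30, edgeR adjusted p 9.7e-04). Neither range overlapped, and both calls held with any library left out but not with the replicate block (edgeR adjusted p 0.0122 and 0.0108). *Irs2* (1.91, edgeR adjusted p 0.0293) was called without Graft SCI 5d 1 (1.61, 0.00834). The number of genes was 406, 350 and 392 without SCI 14d 1 to 3 and 495, 367 and 385 without SCI 5d 1 to 3. Time and read type, as read from the column headers, cannot be told apart here. Of the other lists *Htra1* (-2.06) and *Bcl2l11* (-1.62) were lower and *Pik3r1* (0.84), *Klf15* (1.55) and *Acaca* (1.09) higher. Fibroblast markers summed to 6453, 13757, 17891, 6834 and 5920 CPM at 5 days, above every value at 14 days, and 3 of 6 were lower at 14 days. Of 10 oligodendrocyte lineage markers 4 were higher at 14 days (median 1.38). Graft SCI 5d 4 had 16631 CPM of myeloid markers, beside 719 to 1336 in the other libraries of its group. Their part in the result was not tested.

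Host astrocytes after SCI against uninjured cord called 6933 genes (41.1%) and 7 of 10 members. *Igf1* rose by 2.74 (SE 0.45, edgeR adjusted p 6.3e-05), *Igfbp3* by 2.54 (SE 0.14, 2.3e-10), *Igf2* by 2.34 (SE 0.24, 4.0e-07) and *Irs1* by 0.81 (SE 0.12, 1.8e-05), all without overlap. *Igfbp4* fell by 1.05 (SE 0.11, edgeR adjusted p 4.8e-07) without overlap (96.7, 147, 163, 164 and 150 CPM against 232, 265 and 286; lowest, median, highest). *Igf1r* fell by 0.89 and *Insr* by 0.85, with overlapping ranges. Decile medians by exon length went from 0.21 (shortest) to -0.23 (longest), and relative to its decile *Igf1r* was -0.66 and *Insr* -0.62. For *Igf1r*, Astro replicates 1 to 4 had 85.9, 87.6, 87.8 and 86.4 CPM and the other 5 had 45.8 to 63.8, and only the latter overlapped Astro SCI (34.9 to 51.7). The same 4 libraries stood apart from the other 5 for *Igf1* (0.631 to 2.08 against 2.93 to 7.51). They did so for *Igfbp2* as well (121 to 170 against 86.1 to 108). The size of the *Igf1* rise thus depends on which are used. It was 3.80 with the replicate block, which left out Astro 6 to 9. The labels give no difference between these samples. The 3 other binding proteins tested were higher (*Igfbpl1* 6.79, *Igfbp7* 3.58, *Igfbp6* 1.94), as were 9 of 12 adaptors and inhibitors (largest *Socs3*, 3.00) and *Igf2r* (0.66). Of 8 mRNA binding proteins and imprinted partners 3 were higher (*H19* 5.34, *Cdkn1c* 2.84, *Igf2bp2* 2.22) and 2 lower (*Peg3* -1.16, *Dlk1* -0.83), and of 7 proteases and inhibitors 3 were higher (largest *Htra3*, 2.13) and 1 lower (*Htra1*, -1.36). The FOXO list had 5 of 21 higher and 12 lower, the PI3K list 7 of 24 higher and 8 lower, and the SREBP list 1 of 22 higher (*Srebf1*, 0.47) and 18 lower. Myeloid markers had 10 of 10 higher, fibroblast markers 5 of 6 and oligodendrocyte markers 7 of 10, and astrocyte markers had 3 of 6 lower (*Aldoc* -1.72, *Slc1a3* -1.45, *Aldh1l1* -0.85). Their part in the result was not tested.

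Both interaction tests bore on the members. The CNTF effect with against without 5% FBS called 3600 genes (22.9%) and 8 of 10 members, 2 higher and 6 lower. *Igfbp2* was the largest (-3.38, edgeR adjusted p 1.5e-08): CNTF raised it without serum and lowered it with serum. *Igf2* (-2.48, 5.0e-04) rose under CNTF in both media, less so with serum. Without SPONT 2 it called 6049 genes and 9 members, with *Insr* added (0.62, 0.00179), which was also called without 5% FBS 1 (0.60, 0.00856). With all libraries the decile medians by exon length went from -0.46 (shortest) to 0.30 (longest). There *Insr* was 0.54, and 0.23 relative to its decile. *Irs1* kept its call only without SPONT 1, SPONT 2 or 5% FBS 2. *Igf1* lost its call without CNTF 1 (-2.95, edgeR adjusted p 0.0174) or CNTF 3 (-3.06, 0.0112) and was -3.93 without SPONT 2. With 35 counts in SPONT and 31 in CNTF, *Igf1* was not tested without serum. It entered this interaction through the serum groups, so its value cannot be read as a difference between media. The injury effect in grafts against host astrocytes called 2947 genes (16.8%) and 4 of 10 members. *Igfbp4* was higher (3.46, edgeR adjusted p 4.6e-09), as it rose in grafts after SCI and fell in host astrocytes, and *Igf2* (-3.27; -3.98 without Graft SCI 14d 5), *Igfbp3* (-2.59) and *Igfbp5* (-0.97) were lower. *Igf1* was called without Astro 6 (-2.85, 0.00653), Graft SCI 14d 5 (-3.09, 0.00352) or Graft uninjured 3 (-2.84, 0.00496). *Igfbp5* lost its call without Astro SCI 3 or 4, Graft SCI 14d 2 or 3, or Graft uninjured 1, 2, 4 or 5 (edgeR adjusted p 0.011 to 0.0202).

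Over the 23 group means, *Igf1r* and *Insr* followed each other (Pearson correlation 0.91), as did *Insr* and *Irs2* (0.91), *Igfbp2* and *Igfbp3* (0.89) and *Igf1* and *Igf2* (0.81), whereas *Igf2* and *Irs2* ran opposite (-0.60). Among 10348 genes, the nearest outside the members were *Islr* and *Col1a1* for *Igf1* (0.98 each), *Serping1* and *Unc13b* for *Igf2* (0.96), *Snx9* and *Septin6* for *Igf1r* (0.93), *Slc9a7* and *Fmnl2* for *Insr* (0.94), *Neo1* (0.95) and *Zfp703* (0.94) for *Irs1*, *Cdk5rap2* and *Sec24a* for *Irs2* (0.95), *Trim16* (0.94) and *Vcl* (0.93) for *Igfbp2*, *Nab2* (0.95) and *Pde3a* (0.94) for *Igfbp3*, *Ptpn9* (0.94) and *Ccnd2* (0.92) for *Igfbp4*, and *Timp3* and *Os9* for *Igfbp5* (0.96). These describe likeness of pattern only.

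The remaining marker lists gave these summed levels. The 5 ESC markers, with *Dppa5a* on top, had a mean of 3304 CPM in ESC and 9.91 in NPC P15, and the 5 NPC markers 2359 in NPC P15 and 2550 in SPONT. The 5 endothelial markers had 36.1 in Graft SCI 14d, 161 in uninjured grafts and 290 in dSCI grafts, and here too their part in the result was not tested.

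Promoter windows of 300 bases (250 before and 50 after the start) held the FOXO core TGTTTAC in 0 of 13 entries for 9 members, beside 3.65% of 32851 windows of all genes. The shorter TGTTTA was in 1 entry (13.4% of all), TTCNNNGAA in 0 (8.3%), the overlapping TTCNNGGAA in 0 (4.81%), TATAAA in 1 (13.6%), the GC box GGGCGG in 6 (35.7%), CCATNTTGG in 0 (1.67%) and TCACNNNA in 5 (38.9%). *Insr* has no entry. Windows of genes lower under IGF-1 or CNTF are printed from GRCm38.p6 at RefSeq starts, chr7:67952007-67952306 (+ strand) for *Igf1r* and chr8:11008880-11009179 (- strand) for *Irs2*, with GC boxes in capitals.
*Igf1r*: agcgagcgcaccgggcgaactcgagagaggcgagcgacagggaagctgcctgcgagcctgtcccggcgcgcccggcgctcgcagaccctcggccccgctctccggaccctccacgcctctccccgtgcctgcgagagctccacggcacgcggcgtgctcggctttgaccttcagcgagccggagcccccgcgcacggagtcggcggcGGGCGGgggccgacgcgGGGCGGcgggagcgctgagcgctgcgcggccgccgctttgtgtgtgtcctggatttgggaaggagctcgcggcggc
*Irs2*: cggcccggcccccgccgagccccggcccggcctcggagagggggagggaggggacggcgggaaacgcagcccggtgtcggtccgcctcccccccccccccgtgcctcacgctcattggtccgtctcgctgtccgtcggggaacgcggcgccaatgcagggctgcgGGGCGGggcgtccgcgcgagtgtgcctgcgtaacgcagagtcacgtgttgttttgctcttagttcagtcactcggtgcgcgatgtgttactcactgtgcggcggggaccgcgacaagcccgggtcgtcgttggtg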

How the data were processed

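RNA bound to tagged ribosomes was sequenced in 23 groups of libraries. The deposited values are raw counts per gene, which the authors made with Trimmomatic, HISAT2 on mm10 and featureCounts. Each library lists 27179 Entrez ids, of which 25275 had a symbol and 24390 an exon length in the annotation. Totals were 12286240 to 147764968 counts.

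Levels are counts per 1000000 counts of the library (CPM). The 14 comparisons and 2 interaction tests used edgeR 4.0.16 (glmQLFit and glmQLFTest, TMM, filterByExpr with a minimum count of 10) in R 4.3.3 on all genes, with Benjamini-Hochberg adjustment over all genes tested. A gene was called at adjusted p below 0.01. Alternatives were DESeq2 1.42.0, DESeq2 size factors, no low-count filter, all groups in 1 fit, replicate number as a block, other NPC reference groups, CPM on TMM library sizes, each library left out in turn, and, chosen after seeing the data, normalization factors per decile of exon length. The block fits used only replicate numbers found in every group compared. Tables and figures were made in Python 3.11.15, and the code was tested on simulated data.

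The genes that could be named were the 10 members, called genes of the short axis lists, up to 3 called genes per direction from the longer PI3K, FOXO and SREBP lists, and for each member the 2 genes nearest by Pearson correlation of log2(CPM + 1) group means, with a mean of at least 10 CPM. Not every gene this rule allows is named, and some lists are given as counts or for some comparisons only. A called gene the rule allows is not reported here. Single marker genes were named after their values were seen. Marker lists covered embryonic stem cells, neural progenitors, astrocytes, oligodendrocyte lineage, neurons, myeloid, fibroblast and endothelial cells. Members and lists were chosen with earlier results of these data known, and groups, comparisons and the other alternatives were set before the data were examined. Replicates of a group were checked for duplicates: the lowest chi-square per gene was 2.54 over 209 pairs, so none were copies.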

Additional observations from a re-analysis of the deposited data

Results flagged for a closer look

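In 19 of 230 pairs of member and group, a library lay far from the others of its group by Dixon's test, which by chance marks about 1 in 20. For *Igf1* these were NPC P5 replicate 2 (1.22 CPM, others 0.0359 to 0.122), NPC DCH 4h replicate 4 (0.979, others 0 to 0.137), Astro SCI replicate 2 (49.2, others 15.7 to 23.9) and Graft SCI 5d replicate 4 (350, others 58.4 to 103). The last 2 also had the highest myeloid marker sums of their groups (2340 CPM, others 310 to 720, and 16631, others 719 to 1336). For *Igf2* they were NPC P15 D2 replicate 2 (1.05, others 1.4 to 1.59) and NPC DCH 4h replicate 2 (2.05, others 0.139 to 0.668). For *Igf1r* they were SPONT replicate 2 (37.9, others 50 to 52.2), CNTF replicate 3 (36, others 40.1 to 41), CNTF+5% FBS replicate 2 (68.9, others 55.1 to 56.2) and Graft SCI 14d replicate 4 (91, others 51.6 to 62.5). *Insr* had CNTF+5% FBS replicate 2 (64, others 49.7 to 52) and Graft SCI 5d replicate 1 (47.1, others 33.3 to 35.9), and *Irs1* had NPC P30 replicate 2 (70.6, others 87.6 to 90.6).

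Among binding proteins, *Igfbp3* had ESC replicate 2 (15.7 CPM, others 10.8 to 11.1) and 20% FBS replicate 2 (1609, others 1384 to 1417). *Igfbp4* had 1% FBS replicate 1 (59.7, others 32.1 to 34.9), 10% FBS replicate 1 (716, others 567 to 571) and Astro SCI replicate 1 (96.7, others 147 to 164). *Igfbp5* had Graft uninjured replicate 3 (893, others 1813 to 2133). SPONT replicate 2 is the library whose omission most raised the number of genes called against SPONT, and without it *Igf1r* fell by 0.93 under IGF-1.

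By edgeR 12 interaction results were called. CNTF with against without 5% FBS gave -3.15 for *Igf1* (adjusted p 0.00309), -2.48 for *Igf2* (5.0e-04), -0.55 for *Irs1* (0.00847), 1.38 for *Irs2* (0.00224), -3.38 for *Igfbp2* (1.5e-08), -1.0 for *Igfbp3* (9.4e-04), -1.45 for *Igfbp4* (7.1e-06) and 0.84 for *Igfbp5* (1.8e-05). Of members called both without and with serum, the change under CNTF had opposite directions for *Igfbp2* (0.76 and -2.62) and *Igfbp5* (-0.37 and 0.48). *Igfbp4* (1.02 and -0.42) and *Irs1* (0.33 and -0.21) also differed in sign but were not called in both. *Igf1* was not tested without serum, where it had 35 counts in SPONT and 31 in CNTF. It entered the interaction through the serum groups, so its value cannot be read as a difference between settings. SCI against uninjured cord in grafts against host astrocytes gave -3.27 for *Igf2* (adjusted p 2.7e-04), -2.59 for *Igfbp3* (1.3e-05), 3.46 for *Igfbp4* (4.6e-09) and -0.97 for *Igfbp5* (0.00525). For *Igfbp4* the change was 2.45 in grafts and -1.05 in host astrocytes, with no overlap of ranges in either.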

How the results depend on the processing

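For the members, their numbers and the numbers of genes, DESeq2 left 149 of 157 results on the same side of the threshold (counts: within 1.5 times) and made 8 stronger. DESeq2 size factors left 157 of 157, no filter 153, all groups in 1 fit 140, the replicate block 143 and length decile factors, chosen after seeing the data, 150. Other NPC references left 64 of 66, and leaving out a library 1548 of 1636, with 73 weaker and 15 stronger. Of 230 member levels, 66 moved by more than the replicate SD on TMM library sizes. Same-numbered libraries were not alike (correlation -0.41 to 0.40), so the block does not follow a known pairing.

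IGF-1 against SPONT called 3619 genes and 5 members with DESeq2, run without the block. It called 3351 genes with all groups in 1 fit and 412 with length decile factors (2 members). With the block edgeR called 1 gene and 0 members, with 5999 genes and 6 members at unadjusted p below 0.05. 1% FBS against SPONT called 2555 genes and 4 members with DESeq2, 2278 and 5 with all groups, and 833 genes with the block. With all groups in 1 fit, IGF-1 against CNTF called 2957 genes, CNTF+5% FBS against 5% FBS 2327 and Astro SCI against Astro 4248 (4251 with the block). The injury interaction called 1719 genes with the block. Block fits that used Astro left out Astro 6 to 9, whose replicate numbers the other groups lack.

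Grafts in SCI against uninjured cord called 1918 genes with DESeq2 and 2461 with all groups (2 members). dSCI against uninjured called 1732 genes with DESeq2 (2 members), 2 members with no filter, 2205 genes and 3 members with all groups, and 35 genes and 0 members by edgeR with the block (3320 genes and 4 members at unadjusted p below 0.05), where *Igfbp4* was 2.56 (adjusted p 0.0134). SCI at 14 against 5 days called 1775 genes and 2 members with DESeq2, run without the block, and 2259 genes with all groups. With the block edgeR called 269 genes and 0 members, with 3744 genes and 4 members at unadjusted p below 0.05. There *Igfbp2* was -2.94 (edgeR adjusted p 0.0122) and *Igfbp3* -2.14 (0.0108). *Irs1* in SPONT against NPC P15 reversed with NPC P15 D3 as reference (0.53, SE 0.15, edgeR adjusted p 0.00789). The cause was not tested.

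With each library left out in turn, IGF-1 against SPONT ran from 0 to 5724 genes and 0 to 5 members. There edgeR gave 0 genes and 0 members for 5 of the 8 omissions (5342 to 6156 genes at unadjusted p below 0.05). Without IGF-1 3 it gave 1 gene and no member. The lowest and highest numbers were 2027 to 6049 genes and 4 to 8 members for CNTF. For 1% FBS they were 628 to 1975 genes and 0 to 3 members (the 0 without SPONT 3, with 5 members at unadjusted p below 0.05). CNTF added to 5% FBS gave 1968 to 3908 genes and 4 to 5 members. Grafts gave 232 to 1576 genes and 1 to 2 members for SCI, 197 to 864 and 1 to 2 for dSCI, and 350 to 1191 and 2 to 3 for 14 against 5 days. The interactions gave 2702 to 6049 genes and 6 to 9 members (CNTF) and 2432 to 3628 genes and 3 to 5 members (injury).

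Without a filter the median log2 fold of all genes was 0.25 in place of 0.08 for SPONT against NPC P15 and 0.45 in place of 0.15 for Graft SCI 14d against NPC DCH, where all groups in 1 fit gave 0.34. Outside serum, host and graft groups *Igf1* had group means of at most 0.367 CPM, and whether depth played a part was not tested.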

Other observations

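*Grb10*, an imprinted adaptor gene, had mean levels of 150 CPM in NPC P5, 77.9 in NPC P15, 63.7 in NPC P30, 72.7 in NPC P15 D3 and 33 in NPC DCH, but 0.225 in NPC P15 D2, where the highest of 6 libraries had 0.484. *Plagl1*, also imprinted, had 6.64 CPM in NPC P15 but 0.00746 in NPC P15 D3 and 0.0115 in SPONT. Both genes were singled out after their values were seen.

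*H19*, which lies beside *Igf2*, had 0.0687 CPM in SPONT, 0.919 in CNTF and 0.19 in IGF-1, and 2.39 in Astro and 155 in Graft SCI 14d, 68.9 in uninjured, 359 in dSCI and 427 in Graft SCI 5d.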
